A study of Mus musculus with 14 samples.

Results

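Chromatin accessibility at 43 interferon response genes was examined in mouse haematopoietic stem and progenitor cells. Members were chosen by position: a region was kept if its mean signal over all libraries was at least 50 and it overlapped the RefSeq bounds of a member gene extended by 10 kb on each side. The rule gave 158 of the 59189 regions with that mean, out of 705361 regions in all, and 155 once the 3 regions of Mx1 were set aside. Mx1 was set aside in a parallel count because its promoter also drives the Mx-Cre transgene. All 43 genes were found in the RefSeq table and 41 had a tested region. Oas1a, one of the oligoadenylate synthetase genes, and Ifi44 had none, and 40 genes had a region within 1 kb of a gene bound.

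ATAC-seq, which reads open chromatin by where a transposase can cut and tag the DNA, was run on C57BL/6J long-term haematopoietic stem cells (LT-HSC) and on MPP3, a multipotent progenitor population with a bias to myeloid output. The donor marrow was wild type with Mx-Cre (WT), or carried 1 conditional Dnmt3a allele with the R878H change (Dnmt3a). Other donor marrow carried 1 Npm1-frt allele (Npm1), named Npm1c in the sample titles, or both alleles (Dnmt3a;Npm1, called doubly mutant here). Whole marrow, 1000000 cells, went into lethally irradiated CD45.1 recipients. All recipients, WT included, received poly(I:C), a double-stranded RNA mimic that induces interferon, 4 weeks later. Tamoxifen followed after 4 weeks, and the marrow was collected after 4 more. The labels name Mx-Cre for the WT group and for no other, and do not name the recombinase that acts on the frt sites. Each of the cell types gave 7 libraries. Of the 8 groups, 6 held replicates A and B, while LT-HSC Dnmt3a and doubly mutant MPP3 held replicate B only. Nothing in the labels ties A and B to different animals. The p-values below thus cover the spread among libraries, part of which may be technical.

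Type I interferon binds the receptor made of Ifnar1 and Ifnar2, and interferon gamma binds that of Ifngr1 and Ifngr2. The receptors act through JAK kinases on STAT proteins. A complex that includes Stat2 and Irf9 binds the interferon-stimulated response element (ISRE), and the response to interferon gamma runs through the GAS element. Target genes encode antiviral effectors, sensors of foreign nucleic acid, the antigen presentation machinery and the feedback inhibitors Socs1 and Usp18. Poly(I:C) and interferon are known to drive stem cells into cycle, and a basal level of the pathway is present in unchallenged stem cells.

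The 250 bases upstream of a start site (RefSeq, GRCm38.p6, the same chromosomes as mm10) are shown for 3 members whose start-site regions the results refer to: Isg15, a ubiquitin-like effector, and the inhibitor Socs1, both with ISRE letters, and the receptor gene Ifngr1, without. Capitals mark matches to the ISRE letters GAAANNGAAA on either strand, where matches that overlap run together.
Isg15, chr4:156200819-156201068, minus strand: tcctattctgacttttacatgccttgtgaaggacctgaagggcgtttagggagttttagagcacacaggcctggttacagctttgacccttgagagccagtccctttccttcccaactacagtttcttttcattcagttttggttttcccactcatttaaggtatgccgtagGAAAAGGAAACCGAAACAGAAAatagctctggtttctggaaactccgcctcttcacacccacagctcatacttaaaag
Socs1, chr16:10785537-10785786, minus strand: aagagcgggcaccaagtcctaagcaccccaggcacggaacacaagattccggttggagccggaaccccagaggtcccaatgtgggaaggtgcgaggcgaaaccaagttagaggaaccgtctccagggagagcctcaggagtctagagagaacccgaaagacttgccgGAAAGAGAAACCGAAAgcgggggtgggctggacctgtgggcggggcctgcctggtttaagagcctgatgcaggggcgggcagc
Ifngr1, chr10:19591699-19591948, plus strand: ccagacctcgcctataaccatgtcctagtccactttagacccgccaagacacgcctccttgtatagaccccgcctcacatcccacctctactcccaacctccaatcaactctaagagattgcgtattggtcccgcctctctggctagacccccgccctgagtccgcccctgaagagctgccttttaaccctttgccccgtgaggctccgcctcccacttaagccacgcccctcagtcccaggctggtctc
Isg15 held 3 overlapping ISRE matches, which begin at positions -78 to -66 from its start, and Socs1 held 2. Among 32851 RefSeq promoter windows of 300 bases (250 before and 50 after the start), 3.44% held the ISRE letters. Among the 42 windows of the 34 members in that table, 16 did (38.1%), and these belonged to 16 genes. The GAS letters TTCNNNGAA were in 8.30% of all windows and in 12 of the 42 (28.6%). A match describes letters in a window and does not show a bound site.

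Library totals were 14683769 to 28748205 signal units. The share of a library's signal that fell in tested regions differed between groups before any gene was compared. It was 29.4% in replicate A and 25.5% in replicate B of LT-HSC Npm1, the lowest of the 14 libraries, against 56.5% and 40.7% in LT-HSC WT. MPP3 Dnmt3a followed at 31.8% and 37.1%, and MPP3 WT stood at 40.6% and 63.1%. Comparisons of either mutant group with WT therefore ran together with a difference in this share. The sorted populations matched their labels in part. Regions at 8 myeloid progenitor genes summed to 5503 to 7944 normalized units in MPP3 against 3493 to 5096 in LT-HSC, with no overlap. Regions at 8 LT-HSC genes summed to 5585 to 7040 in LT-HSC against 5230 to 6180 in MPP3. They overlapped through the LT-HSC Npm1 libraries, at 6098 and 5585, while the other 5 LT-HSC libraries stood at 6475 to 7040. The same libraries had the highest myeloid progenitor sums of LT-HSC, 5096 and 4872, and the part of these markers in the Npm1 results below was not tested. Regions at 5 macrophage and dendritic cell genes summed to 631 to 970 in LT-HSC and 846 to 1459 in MPP3. B cell gene sums were 5205 in LT-HSC WT replicate B, 4469 and 4023 in LT-HSC Npm1, and 2724 to 3558 elsewhere. T and NK cell sums were also highest in that WT replicate, 2867 against 1436 to 2332. Erythroid sums were 1400 to 2810 in LT-HSC and 1794 to 2502 in MPP3. The part of these markers in the results below was not tested.

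Member regions had mean signals of 50.3 to 1324.1, with a median of 104.35 against 86.1 for all tested regions. The members nearest the threshold had means of 49.9 outside it and of 50.3 and 50.5 inside it. Of the 158, 60 lay within 1 kb of a member gene's bound, 33 inside the gene and 65 in the flank. Of the flank and inner regions 26 sat within 1 kb of another gene's bound, and 9 of all lay in the windows of more than 1 member. In 31 genes a tested region covered a start site. Start sites were taken from the RefSeq promoter windows, which held 34 of the 43 members. Mx1, Oas2, Zbp1 and Usp18 were among the members without a start there, so start-site counts leave them out. Irf2 and Nlrc5, the longest loci in regions, held 12 tested regions each, Irf1 10, Dhx58 8, and Psmb8 and Adar 7 each. Oas2, Ifit3, Gbp3 and Eif2ak2 held 1 each, and the other members with a tested region 2 to 6. Together the 158 regions took 0.259% to 0.324% of the signal in tested regions, and LT-HSC Npm1 held the lowest values of the 14, at 0.266% and 0.259%.

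Mx1, a GTPase gene against influenza-like viruses that RefSeq lists as a transcribed pseudogene in this C57BL/6J assembly, was the member that stood apart by genotype. Its main region (mm10 chromosome 16, 97462728 to 97465500) reached 178 bp into the gene's upper bound and 2594 bp beyond it, and had a mean signal of 758.8. In LT-HSC its normalized signal stood at 717 and 1493 for WT, 682 for Dnmt3a, 326 and 196 for Npm1, and 927 and 733 for the doubly mutant libraries. The MPP3 values were 1128 and 544 for WT, 1441 and 947 for Dnmt3a, 119.9 and 167 for Npm1, and 776 for the doubly mutant library. All 4 libraries with the Npm1 allele alone lay below all 10 others, whose lowest was 544. The mean was 202 ± 88 (SD, n = 4) against 939 ± 323 (SD, n = 10), a ratio of 4.65. Per 1000000 units of library total, with no scaling by TMM, the range was 5.9 to 11.3 against 32.5 to 67.8.

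**Figure D1:**
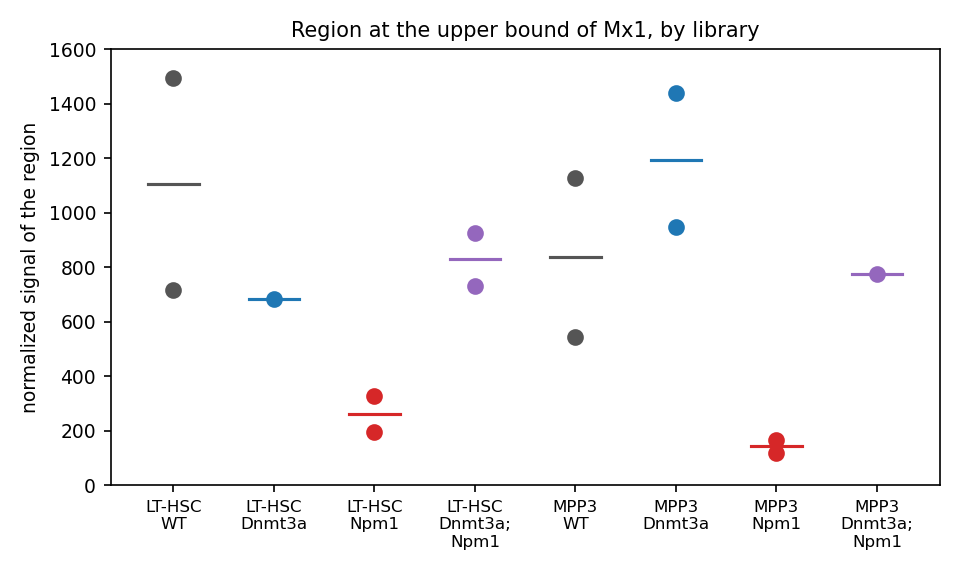
Normalized signal of the main Mx1 region (vertical axis, linear from 0) in each of the 14 libraries (points), by cell type and genotype, with group means as bars. The 4 Npm1 libraries sit between 120 and 326, below every other library, while the LT-HSC WT replicates stand at 717 and 1493.

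The contrast of Npm1 alone with the other genotypes over both cell types was chosen after these values had been seen, so it describes the pattern and is not independent evidence of it. In that contrast 0.00169% of tested regions were called at an adjusted p under 0.05, which is 1 region of 59189, and that region was Mx1. Its log2 difference was -2.17 (SE 0.25, limma adjusted p = 0.000683). No other member was called, with 14 members and 6203 of all regions at an unadjusted p under 0.05. Across all tested regions, 49 (0.0828%) had all 4 Npm1-alone libraries below the other 10, and Mx1 was the sole member among them. By the ratio of the lowest other library to the highest Npm1 library, 1.67, it ranked 1 of the 59189. The doubly mutant libraries, which carry the same Npm1 allele, lay at 733 to 927, among the other genotypes. Mx1 was the single member called in doubly mutant against Npm1 LT-HSC, where its log2 difference was 1.69 (SE 0.41, adjusted p = 0.0431). That call held in 3 of 9 alternative settings and in 7 of 14 fits with 1 library left out, and cyclic loess gave 0.74 (adjusted p = 0.561).

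The separation was seen in that region alone. The Mx1 window held 19 regions of any mean, and in the other 18 the Npm1-alone and other libraries overlapped. Those 18 had mean signals of only 14.6 to 72.3, against 758.8 in the main region. At such low signal, overlap in a region cannot show whether the difference was confined to the main region. Summed, those 18 regions gave 290 to 993 in the 4 Npm1 libraries and 212 to 1105 in the others. In LT-HSC the Npm1 to WT difference at the main region was -2.02 (SE 0.41, adjusted p = 0.0129). Cyclic loess gave -0.95 there (adjusted p = 0.4), and the share of signal in tested regions as a covariate -2.78 (adjusted p = 0.687). In MPP3 it was -2.44 (SE 0.41), the smallest p of all 59189 regions there (5.38e-06, limma), yet not past the threshold after adjustment (adjusted p = 0.318). The difference between these effects was -0.42 (SE 0.58, adjusted p = 0.844). Because the Mx-Cre transgene carries a copy of the Mx1 promoter, reads from the transgene and from the gene's own promoter cannot be told apart in these files, and which groups other than WT carry it is not stated in the labels. The part of transgene copies in these values was not tested. The contrast kept its call in all 12 fits with 1 library left out, and lost it with cyclic loess scaling (-1.74, adjusted p = 0.17) and with a prior variance neither robust nor trended (adjusted p = 0.624).

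**Figure D2:**
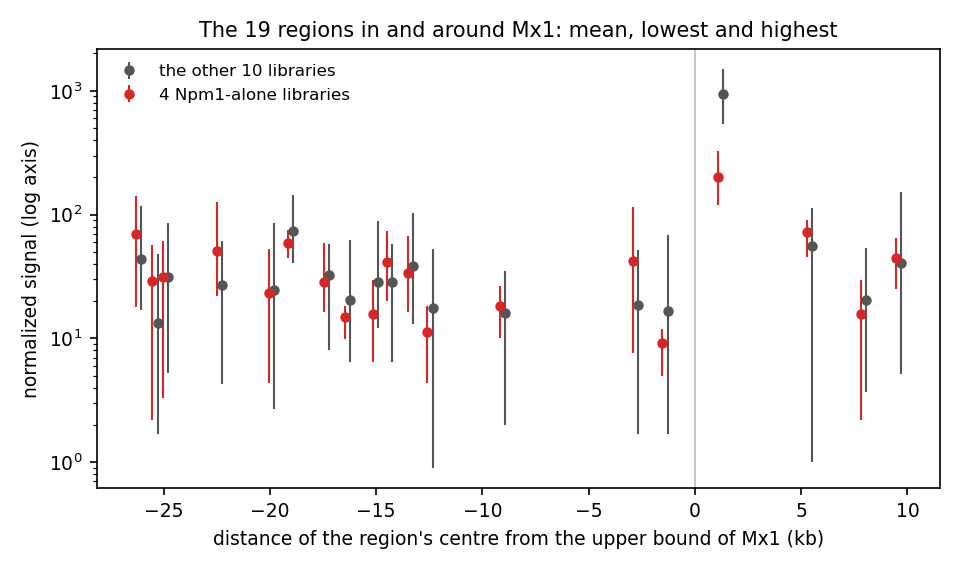
Normalized signal (log axis) of the 19 regions within 10 kb of Mx1, against the distance of each region's centre from the gene's upper bound (kb; negative values run into the gene and past its lower bound). Points are means and bars run from the lowest to the highest library, for the 4 Npm1-alone libraries and the other 10. The ranges separate in the region centred 1208 bp beyond the bound and overlap in the remaining 18, whose mean signals were only 14.6 to 72.3.

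The comparison of Npm1 with WT in LT-HSC sets stem cells with the Npm1 allele alone against WT. The labels name Mx-Cre for WT alone, and the share of signal in tested regions also differs. The allele's own part was not tested. With limma, 7 of the 158 member regions passed the threshold, 6 lower and 1 higher in Npm1, which is 4.43% of members against 5.91% of all tested regions, so members were called no more often than the background. Without Mx1 the count was 6 of 155 (3.87%). At an unadjusted p under 0.05 there were 39 members (24.7%) and 13787 regions in all (23.3%). The median log2 difference was -0.24 in members, of which 97 of 158 were negative, and 0.01 in all tested regions. Counts of negative regions by gene role below stand beside these values and were not tested. The lower regions belonged to Mx1, to the receptor gene Ifngr1, the transcription factor gene Stat2, the inhibitor Socs1, and the effectors Isg20 and Oas3.

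Among the 4 receptor genes, Ifngr1, which encodes the ligand-binding chain of the interferon gamma receptor, fell, and its call held in 6 of 9 alternatives. Its start-site region (chromosome 10, 19591108 to 19592539, over the promoter printed above) had normalized signals of 727 and 627 for WT, 619.5 for Dnmt3a, 273 and 142 for Npm1, and 349 and 598 for doubly mutant LT-HSC. The difference of Npm1 from WT was -1.75 (SE 0.39, adjusted p = 0.0186). The start-site regions of Ifnar1 (-0.99), Ifnar2 (-1.10) and Ifngr2 (-0.44) also had negative differences but did not pass the threshold. Of the 17 receptor regions 1 was called, and 12 had a negative difference.

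Among the 5 transcription factor genes, Stat2, a component of the ISRE-binding complex, fell in the TMM-scaled fit, and its call held in 3 of 9 alternatives. Its start-site region (chromosome 10, 128270091 to 128270966), which also lies within 1 kb of a bound of Apof, gave 332 and 266 in WT against 132 and 92.8 in Npm1, with 313 in Dnmt3a and 259 and 251 in doubly mutant LT-HSC. The difference of Npm1 from WT was -1.39 (SE 0.40, adjusted p = 0.0415). Irf9, its DNA-binding partner, had 327 and 401 in WT and 182 and 119 in Npm1, and missed the threshold (-1.28, SE 0.40, adjusted p = 0.0561). Irf1 (-0.80), an activator induced by interferon gamma, Irf2 (-0.81), its antagonist, and Irf7 (-0.65), the amplifier of type I interferon production, did not pass. The transcription factor genes held 32 regions, of which 1 was called and 18 had a negative difference.

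The 20 antiviral effector genes held 54 tested regions, of which 3 fell and none rose. Beside Mx1 these were a region at Isg20, an exonuclease gene, and a region inside Oas3, an oligoadenylate synthetase gene. The Mx1 call held in 6 of 9 alternatives, and those of Isg20 and Oas3 in 5 of 9 each. With regions of mean at least 100, Isg20 and Oas3 were not called (limma adjusted p = 0.0747 and 0.0978). The Isg20 region (chromosome 7, 78912150 to 78913421), which also lies at a bound of Aen, gave 242 and 378 in WT and 49.7 and 134 in Npm1 (-1.83, SE 0.42, adjusted p = 0.0201). The adjacent region over the Isg20 start had 255 and 214 in WT and 255 and 169.9 in Npm1, a difference of -0.16 that did not pass. The Oas3 region (chromosome 5, 120775234 to 120776105) gave 293 and 314 in WT and 114 and 92.8 in Npm1 (-1.52, SE 0.39, adjusted p = 0.0291), while the region over the Oas3 start showed 0.28. Isg15, with the 3 ISRE matches printed above, had a weakly open start region of 126 and 104 in WT and 82.8 and 71.1 in Npm1 (-0.55, SE 0.59, adjusted p = 0.616). Ifit1 (-0.40), an RNA-binding effector, Adar (-0.46), an RNA editor, and Samhd1 (-0.85), a dNTP hydrolase, did not pass, nor did the single region of Oas2 (0.90).

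Of 21 regions at 5 nucleic acid sensor genes 0 were called by limma, with 5 at an unadjusted p under 0.05 and 14 negative, among them those at the start of Eif2ak2 (-1.15), the kinase PKR, and at Zbp1 (-0.72), a Z-nucleic acid sensor. The 5 antigen presentation genes held 23 regions, and the 1 called was the only member region that rose. It lay 5591 bp outside Nlrc5, the activator of class I genes (chromosome 8, 94427965 to 94428744), and gave 15.1 and 20.1 in WT against 111 and 134 in Npm1 (2.56, SE 0.71, adjusted p = 0.0372). That call held in 4 of 8 alternatives. Signals in this region were low, with a mean of 61.9. They ran from 49.1 to 160.4 in MPP3, so the values of Npm1 stem cells lay within the MPP3 range. B2m (-0.80), the class I light chain, Psmb8 (-0.90) and Psmb9 (-0.50), subunits of the immunoproteasome, did not pass. Of the 2 inhibitors, Socs1, which blocks JAK activity, fell in the TMM-scaled fit but not with cyclic loess scaling (0.12, adjusted p = 0.813), and its call held in 4 of 9 alternatives. Its start-site region (chromosome 16, 10782732 to 10786920) had the highest mean signal of the member regions, with no allowance for region width. It gave 1346 and 1514 for WT, 1269 for Dnmt3a, 786 and 478 for Npm1, and 1130.4 and 1339.6 for doubly mutant LT-HSC (-1.21, SE 0.33, adjusted p = 0.0362). Usp18, which blocks the type I receptor, had -1.01 and did not pass. Of the 6 regions of Parp9 and Parp14 0 were called by limma, with 2 at an unadjusted p under 0.05.

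**Figure D3:**
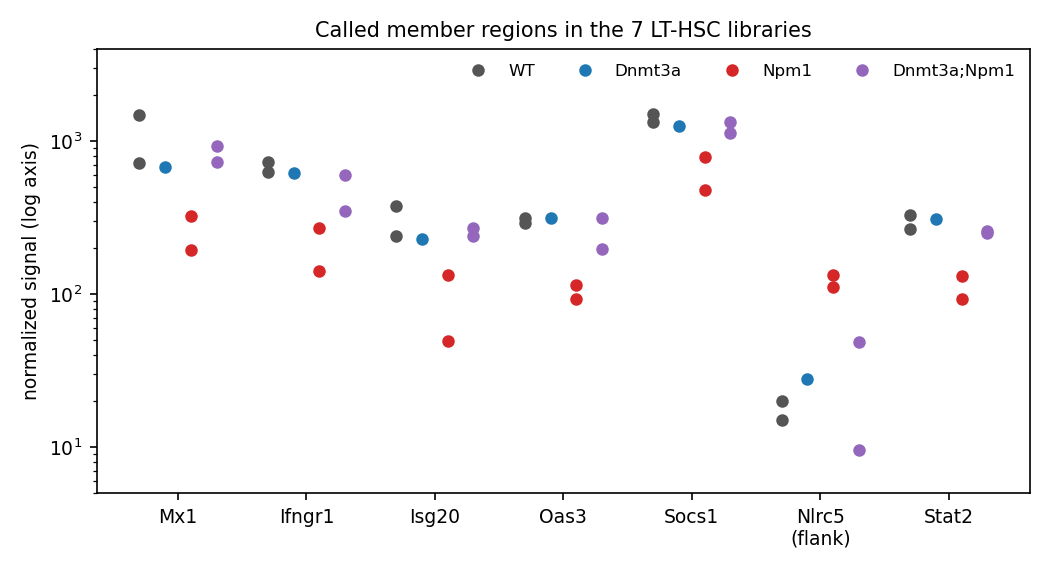
Normalized signal (log axis) of the 7 called member regions in the 7 LT-HSC libraries, coloured by donor genotype, 1 point per library. In 6 regions both Npm1 libraries lie below the other 5, and in the Nlrc5 flank both, at 111 and 134, lie above them. The regions were chosen by a test that used these libraries, so this separation is not separate evidence.

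Negative differences were frequent at start sites, in members as in other genes. Of the 31 member regions over a start site, 30 had a negative difference and 3 were called (9.68%), with a median of -0.80. Over the 11884 tested regions that cover a start site of any gene with a RefSeq promoter window, the median was -0.69, 78.6% were negative and 15.5% were called. Member regions near the bound of any gene had a median of -0.58 against -0.39 for all such regions, and those away from bounds had 0.21 in both. The 13 start-site regions with ISRE letters in the promoter window had a median of -0.80, and the 18 without had -0.83. These differences ran with the low share of signal in tested regions in LT-HSC Npm1. With that share as a covariate the 7 differences kept their direction but none was called (adjusted p = 0.687 to 0.86, limma). Mx1 (-2.78) and Isg20 (-1.97) were then as large as before or larger, and the other 5 smaller, at -1.12 for Oas3, -1.10 for Ifngr1, -0.68 for Socs1, -0.60 for Stat2 and 1.77 for Nlrc5. With cyclic loess scaling 0 members were called, and Socs1 turned to 0.12 (adjusted p = 0.813) while the other 5 lower regions ran from -1.21 (Isg20) to -0.73 (Stat2) and Nlrc5 stood at 2.14. With a prior neither robust nor trended, 0 of the 59189 regions were called. Leaving out LT-HSC WT replicate A, WT replicate B or Npm1 replicate B left 1 member called each time, and leaving out MPP3 Npm1 replicate B left 4.

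**Figure D4:**
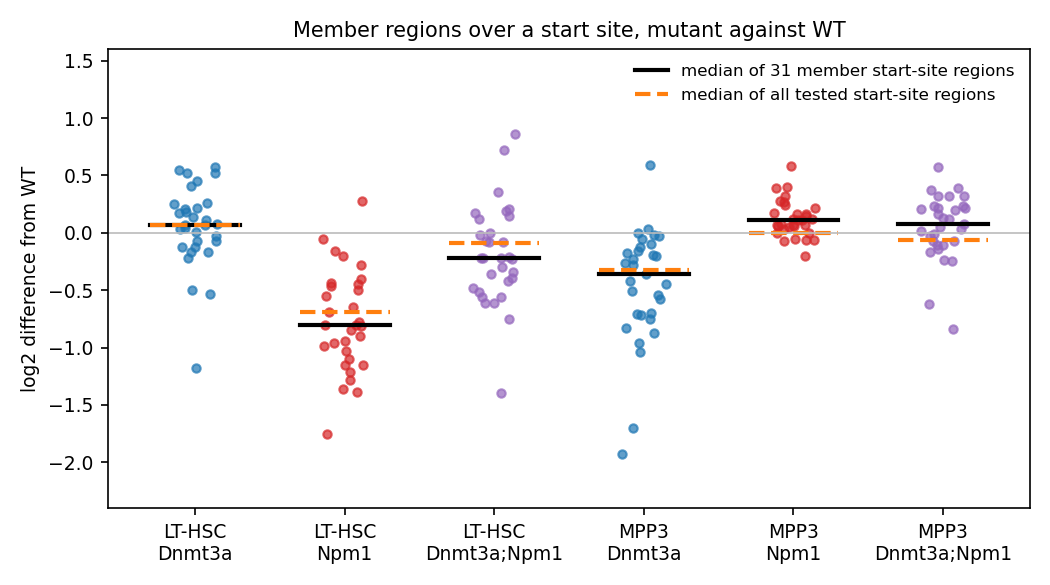
Log2 difference from WT (vertical axis) of the 31 member regions over a start site (points) in the 6 comparisons with WT. Black bars are their medians and dashed orange bars the medians of all 11884 start-site regions. In LT-HSC Npm1 the medians are -0.80 and -0.69, and in MPP3 Npm1 they are 0.11 and 0.

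In LT-HSC the other mutant groups, compared with the same WT libraries, gave no called member. In doubly mutant against WT LT-HSC, 0.00338% of all regions were called and 0 members, with 9 members and 4233 regions at an unadjusted p under 0.05 by limma. The member median was -0.22 (all regions -0.01), and the start-site median -0.22 against -0.09 for all start sites. The members of smallest p were flanking regions of Socs1 (-1.44, SE 0.54, adjusted p = 0.609, and -1.94), and Isg15 was among the lower ones at -1.40 (SE 0.59, adjusted p = 0.653). At the Isg15 start, doubly mutant signals were 65.0 and 25.3 against 126 and 104 in WT, and the 48.2 of Dnmt3a also lay below WT. In Dnmt3a against WT LT-HSC, which rests on 1 Dnmt3a library, 0% of all regions and 0 members were called, and 0 members against 1086 regions (1.8%) had an unadjusted p under 0.05. That is fewer than unchanged regions would give, so 0 calls do not show absence of change. The member median there was 0.07 and that of all regions 0.02.

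The comparison of doubly mutant with Npm1 LT-HSC sets both alleles against the Npm1 allele alone. Whether these groups also differ in Mx-Cre is not stated in the labels. Of all regions 1.7% were called, 886 of 1007 of them higher, and of the members 1 (0.633%), which was Mx1 as given above. Without Mx1 the count was 0 of 155. An unadjusted p under 0.05 was found in 34 of the 158 members (21.5%), 32 of the 155 without Mx1, and 11335 of all regions (19.2%). The next members were Isg20 at 1.59 (SE 0.42, adjusted p = 0.0518), where 272 and 240 in the doubly mutant compared with 49.7 and 134, and a region inside Dhx58, a helicase sensor gene, at -2.58 (SE 0.73, adjusted p = 0.0649). Start-site regions had a median of 0.73 in members and 0.58 in all genes. Shares of signal in tested regions were 42.2% and 41.1% in the doubly mutant libraries against 29.4% and 25.5%, and their part in these values was not tested. The comparison shares its Npm1 libraries with the comparison against WT, so the opposite signs at Isg20 and at start sites are not separate evidence. Leaving out doubly mutant replicate A gave 7 called members. It gave 4 without MPP3 Dnmt3a replicate A, 3 without MPP3 Dnmt3a replicate B, and 0 without WT replicate A, WT replicate B, Npm1 replicate B or doubly mutant replicate B of LT-HSC, or either replicate of MPP3 Npm1.

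In MPP3 no member passed the threshold in any comparison with WT. For Npm1 against WT, 0% of all regions were called, and 1 member (Mx1) and 68 regions in all had an unadjusted p under 0.05. That is 0.1% of regions, fewer than unchanged regions would give, so 0 calls do not show absence of change here. The member median was 0.09 and that of all regions 0.02. Ifngr1, Stat2 and Socs1, called in LT-HSC, had differences of 0.00, 0.15 and 0.16 here. At Ifngr1 the signals were 553 and 825.5 in WT MPP3 and 569 and 806 in Npm1 MPP3, and the groups overlapped. With the share of signal in tested regions as a covariate, Mx1 alone of all 59189 regions was called (-2.52, adjusted p = 0.0405). For the doubly mutant library against WT, 0% of regions and 0 members were called, with 0 members and 283 regions (0.5%) at an unadjusted p under 0.05, so the same limit applies, and Eif2ak2 had the smallest p among members (-0.84, SE 0.46, adjusted p = 1.0).

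For Dnmt3a against WT in MPP3, 0% of regions and 0 members were called, while 13 members (8.2%) and 5989 regions (10.1%) had an unadjusted p under 0.05. Start-site regions had a median of -0.36 in members, 28 of 31 negative, and of -0.32 in all genes, where 74.4% were negative. The share of signal in tested regions was 31.8% and 37.1% in Dnmt3a against 40.6% and 63.1% in WT, and its part in these values was not tested. The smallest member p was at the start of Ifih1, which encodes the RNA sensor MDA5. Its signals were 194 and 379.9 in WT and 25.6 and 173 in Dnmt3a (-1.93, SE 0.56, adjusted p = 0.33). Replicate A was the lowest of all 14 libraries there and replicate B lay just under the lower WT library. A region in the flank of Ifit3, an effector gene, had the smallest p among higher ones (1.94, SE 0.70, adjusted p = 0.394), with 223 and 96.9 in Dnmt3a against 66.9 and 18.0 in WT. Without Dnmt3a replicate A 1 member was called and without replicate B 2, all lower.

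The comparison of cell types addresses whether the pathway's regions differ between stem cells and MPP3. Over all genotypes 0.139% of regions were called and 0 members, with 10 members (6.3%) and 7420 regions (12.5%) at an unadjusted p under 0.05. The member median was 0.08 and that of all regions 0.03. Of the 31 member start-site regions 10 were negative, against 35.5% of all start-site regions. The smallest member p lay in a flanking region of Irf2 (0.55, SE 0.19, adjusted p = 0.252), followed by a region inside Adar (-1.14, SE 0.42, adjusted p = 0.265) and one inside Mx2 (-1.39, SE 0.54, adjusted p = 0.291). In WT alone 0% of regions and 0 members were called, with 5 members and 3152 regions at an unadjusted p under 0.05, and the member median was -0.05. Here too the Adar region had the smallest p (-2.10, SE 0.74, adjusted p = 0.759).

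The tests of whether a mutation acted differently in the cell types gave no called region. For Npm1, 0% of regions were called, with 15 members and 6557 regions at an unadjusted p under 0.05. All 31 start-site regions had a positive difference of effects (MPP3 minus LT-HSC), with a median of 0.96 against 0.69 for all start sites, of which 23.8% were negative. The smallest p values were at Isg20 (1.89, SE 0.59) and Ifngr1 (1.76, SE 0.56), each with an adjusted p of 0.316, so the effects in LT-HSC and MPP3 were not shown to differ. For Dnmt3a, 0% of regions and 0 members were called, with 6 members and 2787 regions at an unadjusted p under 0.05. The Dnmt3a test rests on the single LT-HSC Dnmt3a library.

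A list of 67 other genes of the pathway was read the same way. Of these, 59 had a tested region, 269 regions in all, and 256 were not shared with members. In Npm1 against WT LT-HSC, 4 of the 269 rose and 12 fell (5.95%, again against 5.91% of all regions). Among the lower regions were those at Irf3 (-1.60 and -1.22), the factor that starts interferon production, at Mavs (-1.39), the adaptor of the RNA sensors, and at Ptpn2 (-1.75), a phosphatase that acts on JAK and STAT proteins. The lower ones also took in Sp100 (-2.03), Parp12 (-1.30), a region at a bound of Gbp9 and in the flank of Gbp4 (-2.14), the flank of Ifi35 (-1.12) and 3 regions at Daxx and Tapbp (-1.52 to -1.25). Higher regions lay inside Irf8 (2.89), Tyk2 (2.80), the JAK kinase of the type I receptor, and Ikbke (2.01), and in the flank of Tlr9 (2.39). The Sp100 region was the one region of the list called in doubly mutant against Npm1 LT-HSC (1.86, SE 0.40, adjusted p = 0.0312), and 0 were called by limma in the other 10 comparisons, where 0 to 30 of the 269 had an unadjusted p under 0.05.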

How the data were processed

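ATAC-seq was measured in 14 libraries, grouped by the labels. The deposited signal values are whole numbers over regions shared by all libraries (mm10, per the labels), but are not raw reads: in 8 libraries low values lay on steps of 1.101 to 2.624, so the authors had scaled and rounded each library (7300000 to 18300000 reads in regions by these steps). In the other 6 no step was found and depth is at least the totals of 14683769 to 28748205. The submitters' processing notes list HOMER 4.10, DiffBind 2.12.0, R 3.6.0 and edgeR 3.26.4, without saying what each did. The aligner and the peak caller are not given in the sources used here.

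Regions of mean at least 50 were scaled by TMM (trims of 30% and 5%). With limma 3.58.1 in R 4.3.3, log2(value/factor + 4) was fitted with 8 groups over all 14 libraries, 6 residual degrees of freedom and a robust, trended prior. A group of 1 library takes its spread from the others. Calls are two-sided Benjamini-Hochberg adjusted p under 0.05 over all 59189 regions of a comparison. Log2 differences are on the value plus 4 scale, which understates changes of low regions, and SE is limma's. The fit was tested on simulated data without a group difference in the share of signal in tested regions. That test therefore cannot speak to such a difference. "Gene bound" means either end of a RefSeq gene (GRCm38.p6), and regions were not shown to regulate the gene they are named by. Named regions were all called members, the 3 of smallest p per direction and comparison (a selection is printed), and fixed regions near 21 genes. The values of 1 called region of the list of other pathway genes are not reported here. Members and lists were chosen with earlier results of these data known, as were the markers. Libraries of the same replicate letter did not deviate together in most pairs of groups. Alternatives were the filter, pseudocount, scaling, prior, a covariate, a block, left-out libraries and the window.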

Additional observations from a re-analysis of the deposited data

How the results depend on the processing

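The number of member regions called was recomputed under each alternative, and 271 recomputed counts stayed within 1.5 times the first while 34 did not. Most comparisons had a first count of 0, so many of the 271 were counts that stayed at 0. They say little about how well the calls held. In Npm1 against WT LT-HSC (7 called, 1 higher and 6 lower) the count was 2 with regions of mean at least 100, 28 with scaling to the library total (1 higher, 27 lower, with all regions shifted to a median of -0.57), and 0 with cyclic loess, with the share of signal in tested regions as a covariate and with a prior neither robust nor trended. Under the covariate the difference was -2.78 at Mx1, against -2.02 in the first fit, and -1.97 at Isg20. Neither was called there (limma adjusted p = 0.687 for each). In doubly mutant against Npm1 LT-HSC (1 called) it was 3 with pseudocount 16 and with library-total scaling, and 0 with means of at least 100 or 20, cyclic loess, the covariate, the plain prior and without Mx1. Npm1 against WT MPP3 had 1 with the covariate, and Npm1 alone against the other genotypes (1 called) had 0 with cyclic loess, the plain prior and without Mx1. Leaving out 1 library gave 1 to 10, 0 to 7 and 0 to 2 calls in Npm1 against WT LT-HSC, doubly mutant against Npm1 LT-HSC and Dnmt3a against WT MPP3. It gave 0 to 1 in MPP3 against LT-HSC over all genotypes, where the 1 came without MPP3 Dnmt3a replicate A. The 10 came without MPP3 Dnmt3a replicate A. Leaving out a lone library gives no value where its group is compared. With cyclic loess the Socs1 difference in Npm1 against WT LT-HSC turned to 0.12 (adjusted p = 0.813). The cause of these changes was not tested. The share of all tested regions called under each alternative is not given here. Member counts under the alternatives, those with left-out libraries above included, therefore cannot be set against a background. Among single regions and member medians, 7719 recomputed values held, 73 regions lost the call, 25 gained it, 1 (Socs1) reversed, and 42 medians moved by more than the spread.

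Across 15 pairs of groups, deviations of same-letter libraries from their group means correlated at -0.30 to 0.43, with 1 pair above 0.1. These values cannot show whether libraries of the same letter came from the same animals. With the letter as a replicate block, 6 members were called in Npm1 against WT LT-HSC and 0 in doubly mutant against Npm1 LT-HSC. Depth limits regions of low mean: in 8 libraries a single read is worth 1.101 to 2.624 units.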
